A study of Mus musculus with 6 samples.

Results

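The genes described here encode ligands, receptors, intracellular mediators and inhibitors of BMP, TGF-beta, activin, FGF, IGF and related growth factor signalling. They were chosen by gene name from a list of family names, among genes annotated on the minus strand. The naming rule itself uses no measured value, but it was drawn up with earlier results of these data known. In all, 67 of the 38483 genes listed fitted this choice, and 19269 of the listed genes lie on the minus strand. Another 84 genes with such names, among them Tgfb1, Bmp2, Fgf2, Fgfr1, Igf1, Pdgfra, Id1, Id3, Inhba and Dusp6, are annotated on the plus strand. All of those were listed at 0 in every culture, as was every plus-strand gene, so nothing can be said about them.

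RNA-seq was performed on mouse embryonic fibroblasts (MEFs), which are fibroblast-like cells grown from minced embryos after removal of the limbs, brain and internal organs. There were 3 cultures of wild-type (WT) MEFs and 3 of MEFs from littermates that carried a heterozygous knockout of Nipbl (Nipbl+/-), the gene of a cohesin loader. All 6 cultures were of the CD1 strain, were grown in DMEM with fetal bovine serum and no further agent, and were harvested at passage 3. The methods describe preparation from mid-gestation embryos dissected from 1 pregnant mouse, and the sources used here do not say whether each culture came from 1 embryo, so p-values measure only the spread between these cultures. Total counts lay between 20307454 and 25990783 per culture. Expression is given as CPM, which is the read count scaled to library size after TMM normalization, and levels of different genes are compared only as RPKM, which also divides by gene length.

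Nipbl itself had 128, 145 and 135 CPM in the WT cultures and 101, 101 and 100.3 CPM in the Nipbl+/- cultures, which gave a log2 fold change (log2FC) of -0.43 with a standard error (SE) of 0.06 and an edgeR adjusted p of 0.0213. Of 6 fibroblast markers of the minus strand, such as Fn1, Sparc and Col5a2, all had counts, with summed levels of 29527 to 34527 CPM in WT and 29829.7 to 33636 CPM in Nipbl+/- cultures. These sums are mostly Fn1 (0.12 log2FC) and Col5a2 (-0.20). Of the 6 markers, 5 had a log2FC below 0 and 0 passed the adjusted threshold, with a median of -0.25. Prrx1 (-0.30, edgeR adjusted p = 0.0661) and Sparc (-0.11, edgeR adjusted p = 0.267) were lower without overlap. Col6a2 had the lowest log2FC, -0.70, with overlapping cultures (edgeR adjusted p = 0.125). Macrophage markers were also present. All 14 of them had a log2FC above 0, 0 passed the adjusted threshold, and none was at 0. Their summed level was 101, 74.1 and 83.1 CPM in the WT cultures and 156, 254 and 122 CPM in the Nipbl+/- cultures, without overlap. In bulk RNA, more cells of a type and more RNA per cell cannot be told apart, and neither can fewer cells and less RNA per cell. Summed endothelial markers lay between 72.5 and 104.5 CPM in WT and between 72.3 and 95.4 CPM in Nipbl+/- cultures, without passing the threshold for any marker. Summed epithelial markers were lower without overlap, at 14.4 to 15.8 CPM in WT against 11.5 to 14.1 CPM in Nipbl+/- cultures. That sum is mostly Krt19 (-0.41 log2FC), while 2 of the 3 tested markers, Krt8 (1.48) among them, had a log2FC above 0 and 0 passed. Neural and glial markers were under 5 CPM in sum in every culture, and both erythroid markers of the minus strand were at 0. Ddx3y, a gene of the Y chromosome, exceeded Xist in WT replicates 1 and 2 and in Nipbl+/- replicate 3 only, so the sex of the embryos was not balanced between the genotypes.

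TGF-beta superfamily ligands are dimers that bring together type I and type II receptor kinases at the cell surface, and the receptors then phosphorylate Smad proteins that enter the nucleus together with Smad4. Antagonists such as gremlin, noggin, chordin-like proteins and follistatin bind the ligands outside the cell, and the Id genes are well-known targets of BMP-activated Smads. FGF, PDGF, EGF-family and HGF ligands act instead through receptor tyrosine kinases and the ERK pathway, where Sprouty, Spred and several dual-specificity phosphatase (Dusp) proteins act as brakes, while IGF-binding proteins hold IGFs in the extracellular space. In embryonic mesenchyme these pathways are known for guiding growth, matrix production, limb patterning and skeletal differentiation.

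Of the 67 genes, 54 had enough reads for the test and 13 did not. In Nipbl+/- MEFs, Id2 and Dusp27 were higher and Inhbb and Hbegf were lower by the quasi-likelihood test of edgeR, with an adjusted p of 0.05 as the limit. These 4 were 7.41% of the members tested, beside 1.95% of all 9061 genes tested, of which 1.04% were higher and 0.916% lower (1.57% and 0.773% when scaled by library size alone, with the same 4 members). With other tests the number was 7 with DESeq2 (4.96% of all genes tested), 6 with edgeR's exact test (4.76%), 6 with its likelihood ratio test (4.88%) and 6 with no filter on low counts (2.41%). No tested member differed by 2-fold or more. The cultures of the 2 genotypes did not overlap for 13 members (24.1%), 8 of them higher and 5 lower, beside 22.8% of all genes tested (12% higher and 10.8% lower), a similar share. An unadjusted p-value under 0.05 was found for 17 members (31.5%), beside 16.9% of all genes tested. The median log2FC was -0.03 over the 54 members and -0.0057 over all genes tested. Of the members, 21 lay above 0 (38.9%) and 33 below, while 48.4% of all genes tested lay above 0.

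**Figure D1:**
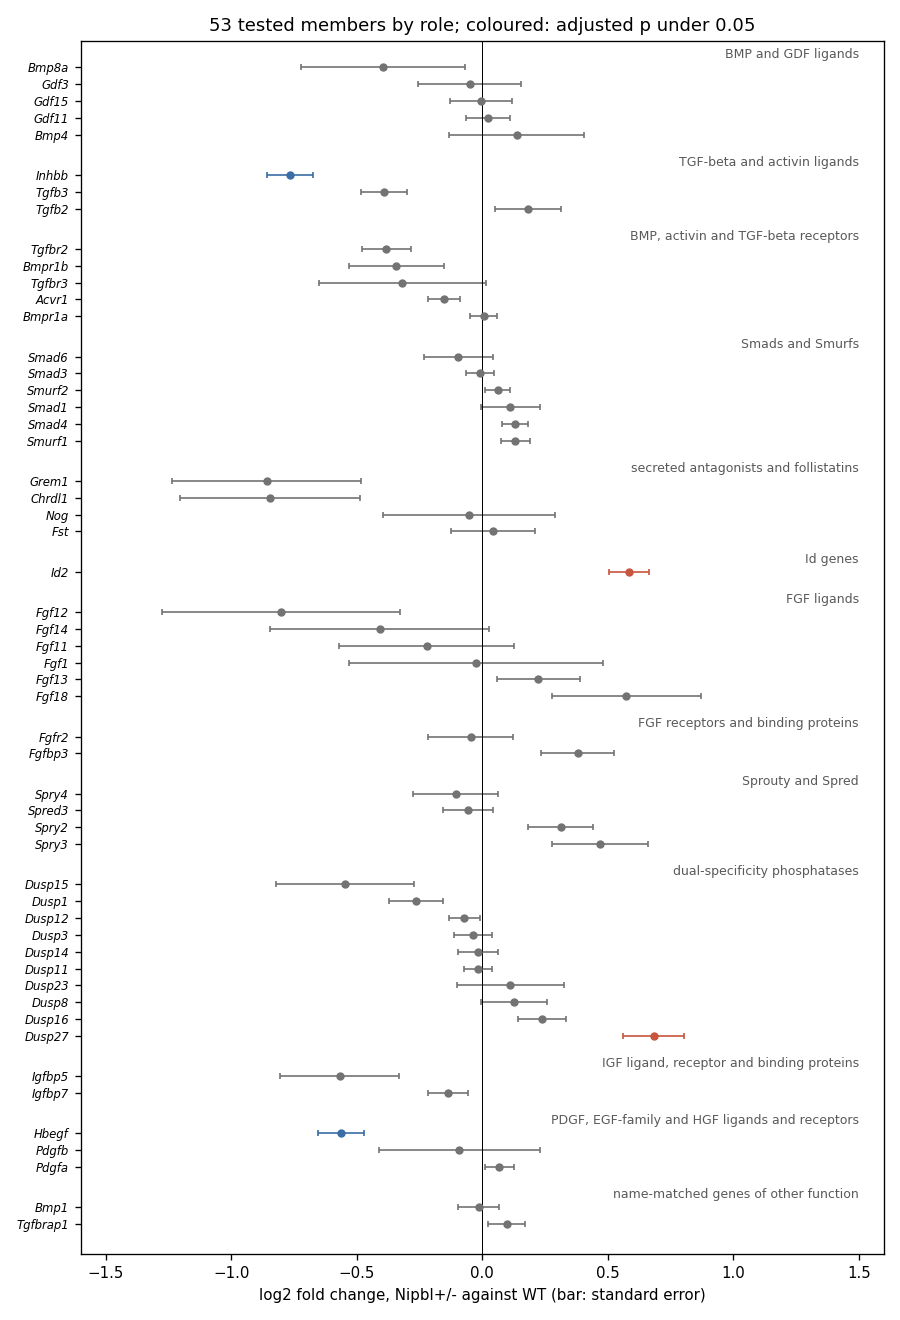
Log2FC of Nipbl+/- against WT MEFs on the horizontal axis for 53 of the 54 tested members, in groups by role. Points are edgeR estimates, bars are SEs, and the 4 genes past the adjusted threshold are coloured (Inhbb and Hbegf in blue for lower, Id2 and Dusp27 in red for higher). Values lie between -0.86 (Grem1) and 0.68 (Dusp27).

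Inhbb (ENSMUSG00000037035) encodes the beta B subunit of activins and inhibins and lies on chromosome 1 from 119415465 to 119422248 of mm10. Its level was 37.4, 36.9 and 40.1 CPM in WT replicates 1, 2 and 3 and 24.9, 19.7 and 22.8 CPM in Nipbl+/- replicates 1, 2 and 3. Every Nipbl+/- culture was below every WT culture, by more than the spread within either genotype. The mean fell from 38.2 ± 1.69 to 22.5 ± 2.64 CPM (SD, n = 3), which is 58.9% of the WT level by the fitted log2FC of -0.76 (SE 0.09, edgeR adjusted p = 0.0176). It was past the threshold in 4 of 6 fits with a culture removed, but not without WT replicate 1 (adjusted p = 0.0803 in edgeR) or without Nipbl+/- replicate 1 (0.0581).

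Id2 (ENSMUSG00000020644), on chromosome 12 from 25093801 to 25096092, encodes an inhibitor of basic helix-loop-helix transcription factors and is a target of BMP signalling. The WT cultures had 23.4, 22.2 and 22.7 CPM and the Nipbl+/- cultures 32.5, 32.5 and 37.6 CPM. The WT cultures lay close together, while Nipbl+/- replicate 3 lay above the other Nipbl+/- cultures. All Nipbl+/- cultures were above all WT cultures. The mean rose from 22.8 ± 0.625 to 34.2 ± 2.94 CPM (SD, n = 3), with a log2FC of 0.58 (SE 0.08, edgeR adjusted p = 0.0213). Id2 is also expressed by blood cells. Its highest level was in Nipbl+/- replicate 3, which had the lowest macrophage marker sum of the Nipbl+/- cultures, 122 CPM, and the part of those cells in its level was not tested. It passed in 3 of 6 fits with a culture removed, but not without WT replicate 1 or without Nipbl+/- replicates 1 or 2 (adjusted p between 0.0723 and 0.0949 in edgeR). Id2 is the only Id gene on the minus strand, and the levels of the others are not known here.

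Hbegf (ENSMUSG00000024486), on chromosome 18 from 36504929 to 36515805, encodes heparin-binding EGF-like growth factor, a membrane-anchored ligand of the EGF receptor. Its level was 189, 189.8 and 161 CPM in the WT cultures and 136, 118 and 112 CPM in the Nipbl+/- cultures. WT replicate 3 was the lowest of its genotype and still lay above the highest Nipbl+/- culture. The mean fell from 179.9 ± 16.5 to 122 ± 12.6 CPM (SD, n = 3, log2FC -0.56, SE 0.09, edgeR adjusted p = 0.0288). With a culture removed it passed in 2 of 6 fits, those without WT replicate 2 or 3, and the adjusted p-value in edgeR was between 0.0719 and 0.119 in the other fits.

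Dusp27 (ENSMUSG00000026564), on chromosome 1 from 166098153 to 166127898, belongs to the dual-specificity phosphatase family and is known mainly from skeletal muscle. There were 19.0, 18.4 and 16.2 CPM in the WT and 33.0, 29.2 and 23.9 CPM in the Nipbl+/- cultures. The genotypes did not overlap, although the Nipbl+/- cultures spread over a wider range than the WT cultures. The mean rose from 17.9 ± 1.48 to 28.7 ± 4.57 CPM (SD, n = 3, log2FC 0.68, SE 0.12, edgeR adjusted p = 0.0373). With a culture removed it likewise passed in 2 of 6 fits, those without WT replicate 2 or Nipbl+/- replicate 3. With the Xist level as a covariate the edgeR adjusted p was 0.0586. Skeletal muscle markers are given beside it, and their part in its level was not tested. Of 7 on the minus strand, 5 were tested, 3 of these had a log2FC above 0 and 0 passed. The log2FC was above 0 for Ttn (0.68), Tnnt1 and Acta1 (0.16) and below 0 for Chrna1 (-0.26) and Actc1 (-0.63). All of these but Tnnt1 overlapped between the genotypes. Tnnt1, a slow-muscle troponin, had 2.45, 2.36 and 2.51 CPM in the WT and 3.16, 2.90 and 3.10 CPM in the Nipbl+/- cultures, higher without overlap (log2FC 0.32, edgeR adjusted p = 0.347). The summed marker level, mostly Acta1, was 246 to 349 CPM in WT and 303 to 348 CPM in Nipbl+/- cultures, which overlapped, and Myf5 and Pax7, which define muscle precursors, were under 0.05 CPM on average in both genotypes.

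**Figure D2:**
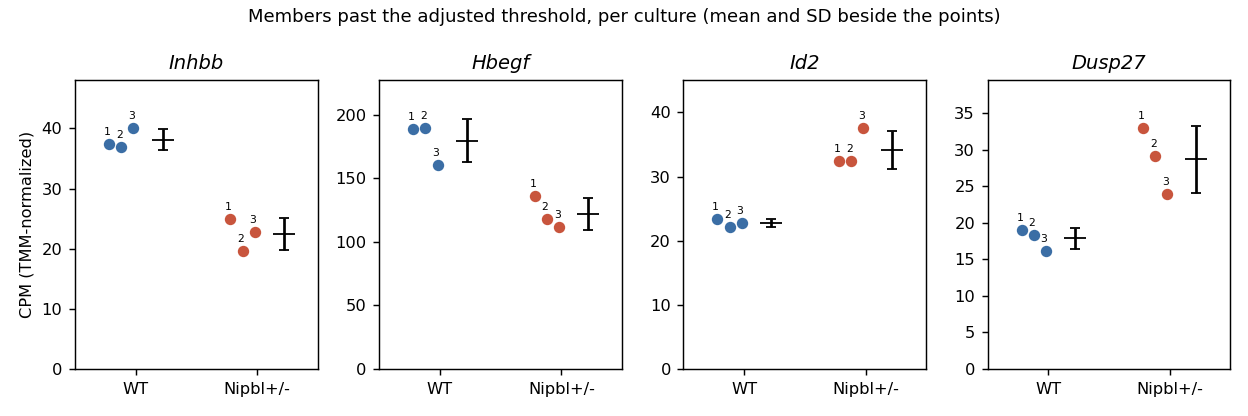
Expression of the 4 genes past the adjusted threshold, in CPM after TMM normalization on the vertical axes, which start at 0. Points are single cultures marked with the replicate number, blue for WT and red for Nipbl+/-, and the black bar beside them is the mean with the SD of 3 cultures. Inhbb and Hbegf are lower and Id2 and Dusp27 are higher in all 3 Nipbl+/- cultures than in any WT culture.

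The 250 bases before the annotated start of 3 of these genes are shown because these genes passed the threshold. They are RefSeq sequences of GRCm38.p6, the build of mm10, written 5′ to 3′ on the minus strand, where each gene lies. Capitals mark matches on either strand to 6 motifs. These were the GC box GGGCGG, the palindrome GGCGCC bound by BMP Smads, the Smad box CAGACA, the AP-1 site TGACTCA, the cAMP response element TGACGTCA and the TATA box TATAAA.
Inhbb, chr1:119422249-119422498: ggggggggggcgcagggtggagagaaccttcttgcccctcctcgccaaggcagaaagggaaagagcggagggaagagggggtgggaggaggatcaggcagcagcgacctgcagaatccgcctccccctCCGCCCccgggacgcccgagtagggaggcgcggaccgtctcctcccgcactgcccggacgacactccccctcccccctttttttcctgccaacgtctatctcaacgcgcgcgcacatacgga
Id2, chr12:25096093-25096342: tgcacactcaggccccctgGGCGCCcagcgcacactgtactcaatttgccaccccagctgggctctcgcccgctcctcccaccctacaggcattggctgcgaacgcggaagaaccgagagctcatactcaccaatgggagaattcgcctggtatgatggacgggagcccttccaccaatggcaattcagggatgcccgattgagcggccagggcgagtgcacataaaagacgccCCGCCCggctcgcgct
Dusp27, chr1:166127899-166128148: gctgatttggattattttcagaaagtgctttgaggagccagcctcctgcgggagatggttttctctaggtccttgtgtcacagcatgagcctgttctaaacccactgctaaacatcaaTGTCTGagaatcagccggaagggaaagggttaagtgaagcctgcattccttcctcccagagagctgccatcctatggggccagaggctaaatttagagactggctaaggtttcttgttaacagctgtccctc
The Inhbb window held 1 GC box, the Id2 window 1 GC box and 1 GGCGCC, and the Dusp27 window 1 CAGACA, and no match overlapped another. Of 32851 windows of the same length in the table, 32.7% held the GC box, 9.59% GGCGCC, 17.1% CAGACA, 4.46% TGACTCA, 1.55% TGACGTCA and 12.4% TATAAA. GC content was 68.0% for Inhbb, 62.8% for Id2 and 48.8% for Dusp27, beside a median of 52.4% over the windows, and these windows held 21, 18 and 2 CpG sites. These are matches of letters and no binding was measured. Entries were found for 47 of the 67 genes.

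Among TGF-beta and activin ligands, 5 genes were listed and 3 tested. Tgfb3, with 102 RPKM in WT, was the highest of them per gene length, followed by Tgfb2 with 30.2 and Inhbb with 8.54 RPKM. Tgfb3 had 328, 393 and 366 CPM in the WT cultures and 299.9, 285 and 243 CPM in the Nipbl+/- cultures. The genotypes did not overlap, but its log2FC of -0.39 did not pass the threshold (SE 0.09, edgeR adjusted p = 0.0719). It passed with edgeR's exact and likelihood ratio tests, with DESeq2 and with no filter on low counts, where the adjusted p was between 0.00168 and 0.0284. These were 4 of 10 settings that kept every culture, and it passed in 0 of 6 fits with a culture removed. Of its exonic bases, 12.4% are shared with noncoding or unclassified plus-strand transcripts. Tgfb2 had the opposite sign, with 136, 148 and 165 CPM in WT MEFs and 199, 174 and 136 CPM in Nipbl+/- MEFs and a log2FC of 0.18 (edgeR adjusted p = 0.541). Its genotypes overlapped, since Nipbl+/- replicate 3 was level with the lowest WT culture. Inhbc and Inhbe, which encode activin subunits known from liver, had no count in any culture.

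Of 6 receptor genes, 5 were tested, 4 of them had a log2FC below 0 and 0 passed. Tgfbr2, the type II receptor of TGF-beta, had 232, 204 and 274 CPM in the WT cultures and 183, 176 and 186 CPM in the Nipbl+/- cultures. The Nipbl+/- cultures lay close together and below all WT cultures. The log2FC was -0.38 (SE 0.10, edgeR adjusted p = 0.0940), and the adjusted p was between 0.00469 and 0.0452 with edgeR's exact and likelihood ratio tests, with DESeq2 and with no filter on low counts. Without WT replicate 2, the lowest WT culture, it was 0.0246 in edgeR, the only 1 of 6 fits with a culture removed that passed. In these fits the edgeR adjusted p reached 0.257. Of 10 settings that kept every culture, Tgfbr2 passed in 4. Acvr1, a type I receptor for BMPs and activins, did not overlap either, with 44.0, 47.3 and 41.9 CPM against 38.3, 41.0 and 40.5 CPM, but the size was small (log2FC -0.15, edgeR adjusted p = 0.287).

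The BMP receptors differed from each other in how much they varied. Bmpr1a, a type I BMP receptor, had 264 ± 14.1 CPM in WT MEFs and 265 ± 7.79 CPM in Nipbl+/- cultures (SD, n = 3), a log2FC of 0.00562 with an SE of 0.06. For Bmpr1b, its close relative known from limb cartilage, the WT cultures ranged from 25.1 to 42.9 CPM and the Nipbl+/- cultures from 21.7 to 28.5 CPM (log2FC -0.34, edgeR adjusted p = 0.406). Per gene length Bmpr1a was at 39.6 RPKM and Bmpr1b at 5.27 RPKM in WT. Tgfbr3, the betaglycan co-receptor, was highest in WT replicate 3 and Nipbl+/- replicate 3, at 35.9 and 29.6 CPM, while all other cultures were between 14.3 and 22.8 CPM. Acvr1c had no more than 4 reads in any culture and was not tested.

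All 6 Smad and Smurf genes were tested and 0 passed. Their log2FC values were small, from -0.09 for Smad6 to 0.13 for Smurf1. Smad4, the partner shared by both branches, had 106, 114 and 114 CPM in WT MEFs and 119, 122 and 124 CPM in Nipbl+/- MEFs. Smurf1, a ubiquitin ligase that marks Smads and receptors for degradation, had 146, 144 and 132 CPM and 159, 152 and 152 CPM. In both genes all Nipbl+/- cultures were above all WT cultures, with log2FC values of 0.13 and 0.13 and edgeR adjusted p-values of 0.267 and 0.288. Smurf2, the related ligase, had 219.8 ± 6.19 CPM in WT MEFs and 229 ± 8.83 CPM in Nipbl+/- cultures (SD, n = 3), and its genotypes overlapped. The log2FC was 0.11 for Smad1, which BMP receptors activate, and -0.0087 for Smad3, which TGF-beta and activin receptors activate.

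The 5 secreted antagonists included Grem1 and Chrdl1, the members with the log2FC farthest from 0, and some of the widest spreads, and 0 passed the threshold. Grem1 encodes gremlin 1, a BMP antagonist. Among the members, all of the minus strand, it was the second-highest TGF-beta superfamily ligand or antagonist per gene length after Tgfb3, at 80.4 RPKM in WT. Its level was 387, 242 and 419.6 CPM in WT replicates 1, 2 and 3 and 134, 117 and 328 CPM in Nipbl+/- replicates 1, 2 and 3. Nipbl+/- replicates 1 and 2 were below all WT cultures, and Nipbl+/- replicate 3 lay within the WT range. The log2FC of -0.86 had an SE of 0.38 (edgeR adjusted p = 0.298). Without Nipbl+/- replicate 3 it was -1.48 with an edgeR adjusted p of 0.0403, the only 1 of 6 fits with a culture removed that passed. Over these fits the log2FC ranged from -1.48 to -0.60 and the edgeR adjusted p reached 0.561. Grem1 passed in 0 of 10 settings that kept every culture.

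Chrdl1, a chordin-like BMP antagonist of the X chromosome, was weakly expressed at 2.13, 1.16 and 3.20 CPM in WT MEFs and 1.13, 1.18 and 1.29 CPM in Nipbl+/- MEFs. The Nipbl+/- cultures were all near the lowest WT culture (log2FC -0.85, SE 0.36, edgeR adjusted p = 0.282). Fst, which encodes the activin antagonist follistatin, had 82.1, 117 and 113 CPM in WT MEFs and 91.5, 97.5 and 133 CPM in Nipbl+/- MEFs, with a log2FC of 0.04. The BMP antagonist noggin was close to the limit of the test, with 13 to 22 reads per culture.

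**Figure D3:**
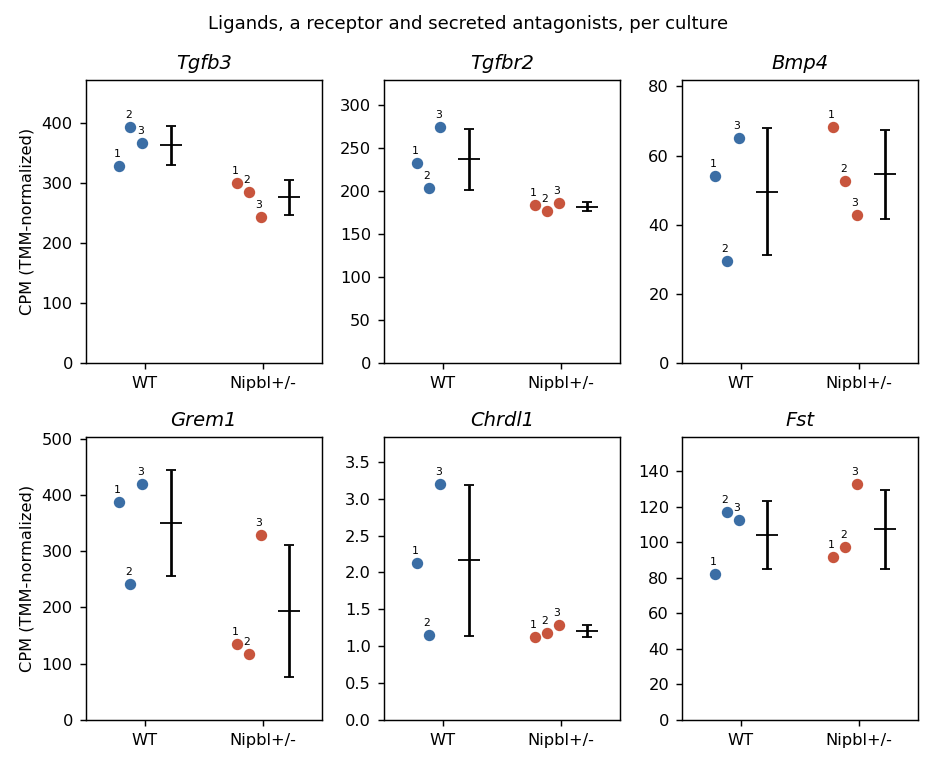
Expression of the ligand genes Tgfb3 and Bmp4, the receptor gene Tgfbr2 and 3 secreted antagonists in CPM after TMM normalization, on vertical axes that start at 0. Points are single cultures marked with the replicate number, blue for WT and red for Nipbl+/-, with the mean and SD of 3 cultures as a black bar. Nipbl+/- replicate 3 sits apart from replicates 1 and 2 for Grem1, at 328 CPM against 134 and 117 CPM.

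BMP and GDF ligands were 9 genes, of which 5 were tested, 0 passed and 2 had a log2FC above 0. Bmp4, the highest of them per gene length at 21.3 RPKM in WT, had 54.2, 29.5 and 65.2 CPM in the WT and 68.3, 52.6 and 42.7 CPM in the Nipbl+/- cultures. WT replicate 2 was the lowest of the 6 cultures, and the sign of its log2FC of 0.14 (SE 0.27) turned when that culture was left out. Gdf11, which patterns the posterior body axis, was even across cultures at 39.4 ± 4.84 and 40.0 ± 0.602 CPM (SD, n = 3, log2FC 0.02, SE 0.09). Gdf15, a secreted factor induced by cellular stress, was at 7.81 ± 0.423 CPM in WT MEFs and 7.78 ± 0.794 CPM in Nipbl+/- cultures (SD, n = 3, log2FC -0.00487, SE 0.12). Bmp8a was low, at 2.45, 1.07 and 1.58 CPM in WT MEFs and 1.53, 1.11 and 1.24 CPM in Nipbl+/- MEFs, and its near-identical neighbour Bmp8b is on the plus strand, so how reads were divided between them is uncertain. Gdf3 was tested too, with a log2FC of -0.05, and Bmp7, Bmp15, Gdf5 and Gdf7 had at most 16 reads in any culture.

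FGF ligands of the minus strand were weakly expressed, and levels of those on the plus strand, such as Fgf2, are not known here. Of 10 genes, 6 were tested, 2 of them had a log2FC above 0 and 0 passed, and no member exceeded 1.63 RPKM on average in either genotype. The highest was Fgf13, a member of the FGF homologous factors that stay inside the cell, with 5.90, 6.68 and 4.55 CPM in WT MEFs and 7.31, 6.27 and 6.45 CPM in Nipbl+/- MEFs (log2FC 0.22, edgeR adjusted p = 0.548). Fgf18, a secreted ligand with roles in skeletal growth, had 1.09, 1.25 and 1.16 CPM in the WT and 2.48, 1.45 and 1.29 CPM in the Nipbl+/- cultures. All Nipbl+/- cultures were above all WT cultures, and the log2FC of 0.57 (SE 0.30, edgeR adjusted p = 0.372) was 0.23 without Nipbl+/- replicate 1. Fgf12, another FGF homologous factor, had 2.27 CPM in WT replicate 2 and between 0.573 and 0.953 CPM in the other 5 cultures. Its log2FC of -0.80 (SE 0.47) was -0.11 without that culture. Fgf14 varied as widely, at 2.27, 1.07 and 1.53 CPM in WT MEFs and 2.07, 0.841 and 0.764 CPM in Nipbl+/- MEFs. The limb and brain signal Fgf8 had 1 read in all 6 cultures together, and Fgf17, Fgf20 and Fgf21 had at most 9 reads in any culture.

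Fgfr2 was the only FGF receptor gene on the minus strand. It had 87.2, 58.6 and 99.2 CPM in WT MEFs and 84.5, 70.2 and 82.6 CPM in Nipbl+/- MEFs, with WT replicate 2 lowest, and a log2FC of -0.05 (SE 0.17). Its span in the annotation used by the authors, from 130162451 to 133123350 on chromosome 7, takes in neighbouring genes, so reads of others may be among its counts. Fgfbp3, a secreted carrier of FGFs, had 3.31, 2.94 and 3.39 CPM in WT MEFs and 4.24, 4.24 and 4.06 CPM in Nipbl+/- MEFs. These did not overlap, and the log2FC of 0.38 did not pass (SE 0.15, edgeR adjusted p = 0.242).

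The 4 Sprouty and Spred genes were all tested and 0 passed. Spry2, an ERK pathway inhibitor induced by FGF signalling, was the highest of them at 15.1 RPKM in WT. Its level was 34.5, 37.3 and 27.3 CPM in the WT and 37.9, 38.1 and 47.2 CPM in the Nipbl+/- cultures, where the lowest Nipbl+/- culture was just above the highest WT culture. The log2FC was 0.31 (SE 0.13, edgeR adjusted p = 0.274), and with the Xist level as a covariate it was 0.43 with an edgeR adjusted p of 0.0226. That was the only 1 of 10 settings that kept every culture in which Spry2 passed. It passed in 0 of 6 fits with a culture removed. Spry3, which the files place on an unlocalized contig of the X chromosome, had 1.77, 1.56 and 1.90 CPM in WT MEFs and 2.66, 2.29 and 2.29 CPM in Nipbl+/- MEFs without overlap (log2FC 0.47, edgeR adjusted p = 0.274). Spry4 (-0.11) and Spred3 (-0.06) had log2FC values below 0 and overlapping cultures.

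Of 11 Dusp genes, 10 were tested. Dusp27 was the only one past the threshold, and 4 of the 10 had a log2FC above 0. Dusp1, an immediate early gene whose product dephosphorylates MAP kinases, had 61.8, 64.0 and 51.8 CPM in WT MEFs and 56.8, 45.4 and 45.7 CPM in Nipbl+/- MEFs, and Nipbl+/- replicate 1 lay within the WT range (log2FC -0.26, SE 0.11, edgeR adjusted p = 0.271). Dusp16, which acts on JNK and p38, had 16.9, 20.4 and 17.5 CPM and 23.0, 21.5 and 20.2 CPM, with WT replicate 2 just above the lowest Nipbl+/- culture (log2FC 0.24, edgeR adjusted p = 0.261). Among these minus-strand genes Dusp3 had the highest level per gene length (30.2 RPKM in WT) and was steady. It was at 149 ± 3.97 and 145 ± 14.8 CPM and Dusp11, an RNA phosphatase, at 117 ± 3.63 and 116 ± 4.93 CPM in WT and Nipbl+/- cultures (SD, n = 3), with log2FC values of -0.04 and -0.02. Dusp8, Dusp12, Dusp14, Dusp15 and Dusp23 had log2FC values between -0.55 and 0.13, and Dusp13 had at most 12 reads in any culture.

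The IGF system was represented by the binding protein genes Igfbp5 and Igfbp7, and 0 of 2 passed. Igfbp7 was the most expressed member by far, at 860.4 RPKM in WT and 807 RPKM in Nipbl+/- cultures. Its level was 1089.5, 1212 and 992 CPM in WT MEFs and 1053, 1014 and 929.9 CPM in Nipbl+/- MEFs, which overlapped (log2FC -0.14, SE 0.08, edgeR adjusted p = 0.423). Igfbp5 had 181, 277 and 139 CPM in WT MEFs and 164, 123 and 115 CPM in Nipbl+/- MEFs. WT replicate 2 stood out, and without it the log2FC of -0.57 (SE 0.24, edgeR adjusted p = 0.276) was -0.25. Beside Hbegf, the receptor tyrosine kinase ligands included Pdgfa and Pdgfb, which encode the PDGF chains that attract and expand mesenchymal cells. Pdgfa was even at 63.7 ± 2.73 and 66.8 ± 3.80 CPM (SD, n = 3, log2FC 0.07, SE 0.06), and 26.1% of its exonic bases are shared with an antisense transcript. Pdgfb was low at 1.24 ± 0.332 and 1.16 ± 0.366 CPM, with a log2FC of -0.09 (SE 0.32). The names also picked out Bmp1, a protease that processes procollagens and cleaves chordin, and Tgfbrap1, a vesicle trafficking protein. Bmp1 was the second-highest member per gene length at 114 RPKM in WT, with 451 ± 41.4 and 447 ± 36.7 CPM and a log2FC of -0.01 (SE 0.08), while that of Tgfbrap1 was 0.10.

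**Figure D4:**
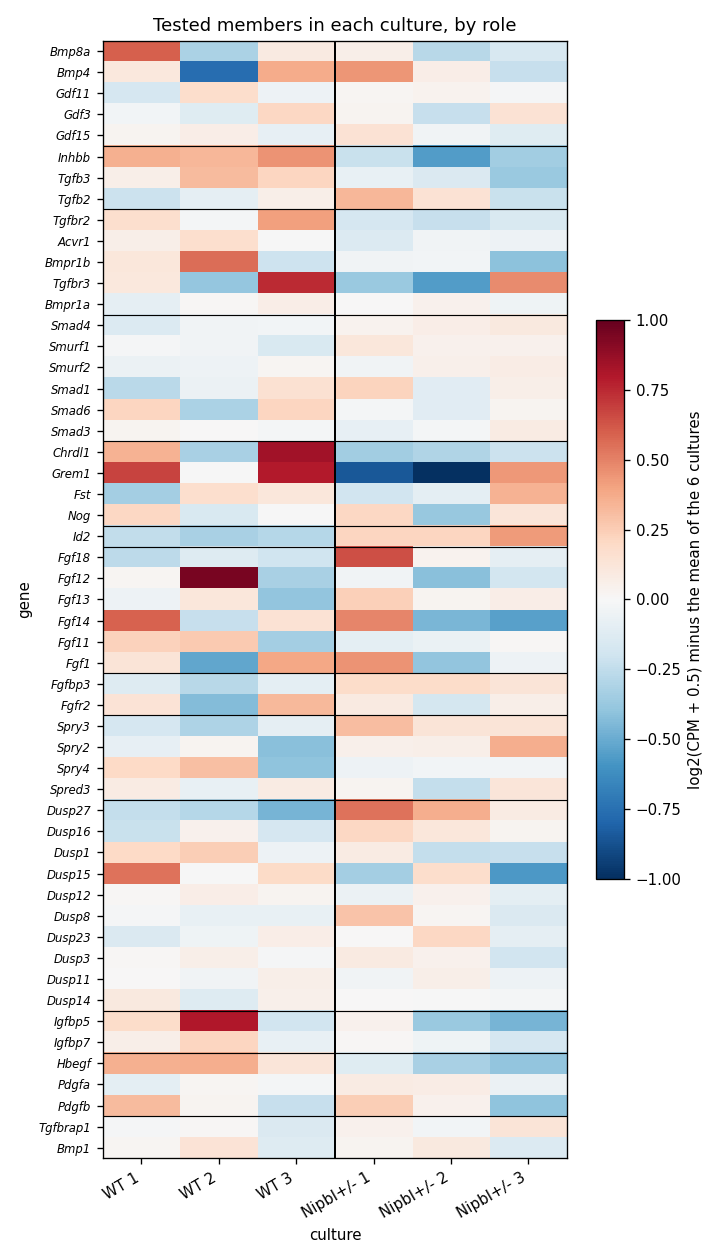
The 53 members drawn in the plot by role, in each of the 6 cultures, as log2(CPM + 0.5) minus the mean of the 6 cultures, with red above and blue below that mean and the scale limited to 1 in either direction. Black lines separate the roles and the genotypes. The rows of Inhbb, Hbegf, Id2 and Dusp27 split between the genotypes, while Grem1, Tgfbr3, Bmp4, Igfbp5 and Fgf12 differ between cultures of the same genotype.

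The members varied somewhat more between cultures than genes in general. The median coefficient of variation over the tested members was 10.1% in WT and 10.3% in Nipbl+/- cultures, beside 8.0% and 7.19% over all genes tested. Among members above 10 CPM on average the coefficient of variation was highest for Grem1 in Nipbl+/- cultures (60.6%) and for Tgfbr3 in both genotypes (40.3% and 41.5%), and it was 36.9% for Bmp4 and 35.6% for Igfbp5 in WT. Among the lowest in WT were Smad3 (1.73%), Dusp3 (2.67%) and Smurf2 (2.82%). Grem1, Tgfbr3, Bmp4 and Fgfr2 were each lowest among the WT cultures in replicate 2, and Igfbp5, Bmpr1b and Fgf12 were each highest there. These genes were picked after their values were seen, and the share over all genes was not taken. Other members were also lowest there, such as Smad6 and Chrdl1, or highest, such as Tgfb3 and Fst. Chondrocyte marker expression, which here is Col2a1 alone, was also lowest in WT replicate 2, at 119 CPM against 472 and 274 CPM in WT replicates 1 and 3, and its part in these levels was not tested.

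Other genes of the same pathways were taken from a list of 119 names, and 65 entries of the minus strand were found, of which 64 were tested. Of these, 2 were higher and 2 were lower at an adjusted p-value under 0.05, beside 1.04% and 0.916% of all genes tested. The log2FC was above 0 for 30 and below 0 for 34, while 48.4% of all genes tested lay above 0. In the TGF-beta and BMP list, 20 were tested, 6 with a log2FC above 0. Ltbp4, which anchors latent TGF-beta in the matrix, rose from 8.54 ± 1.38 to 14.7 ± 2.22 CPM (SD, n = 3, log2FC 0.78, edgeR adjusted p = 0.0469). Nbl1, a secreted BMP antagonist of the Dan family, fell from 120.2 ± 3.68 to 91.0 ± 5.12 CPM (SD, n = 3, log2FC -0.40, edgeR adjusted p = 0.0232).

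In the FGF and ERK list, Csf1 was the only 1 of 25 tested entries past the threshold. It encodes the growth factor of macrophages and fell from 477 ± 23.5 to 336 ± 23.4 CPM (SD, n = 3, log2FC -0.50, edgeR adjusted p = 0.0188), while the macrophage markers above had higher values in Nipbl+/- cultures. The ERK target genes Etv4 and Etv5 had log2FC values of 0.08 and 0.02 (edgeR adjusted p = 0.847 and 0.923). In the IGF and insulin list, Pik3cb, a catalytic subunit of phosphoinositide 3-kinase, was the only 1 of 19 past the threshold and rose from 35.2 ± 2.61 to 47.7 ± 4.57 CPM (SD, n = 3, log2FC 0.44, edgeR adjusted p = 0.0454).

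Pappa2 and Grb10, both of this list and just short of the threshold, were named after their values were seen and had opposite signs. Pappa2, a protease that cleaves Igfbp5, had 11.2, 8.63 and 7.66 CPM in the WT and 5.82, 4.43 and 4.01 CPM in the Nipbl+/- cultures (log2FC -0.95, edgeR adjusted p = 0.0511). Grb10, an imprinted adaptor that restrains insulin and IGF receptor signalling, had 1348, 1380.4 and 1594 CPM and 1747, 1839 and 1831 CPM in the same order (log2FC 0.33, edgeR adjusted p = 0.0511). Igf2, the IGF ligand of this list, overlapped between genotypes at 468, 328 and 676 CPM in WT MEFs against 414, 389.5 and 479 CPM in Nipbl+/- MEFs.

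Several genes of the TGF-beta and BMP list are themselves known transcriptional targets, and those that follow were named after their values were seen. Beside the higher Id2, the BMP target gene Msx2 had 13.7, 8.41 and 10.8 CPM in the WT and 6.36, 5.73 and 7.02 CPM in the Nipbl+/- cultures, without overlap, and did not pass (log2FC -0.79, edgeR adjusted p = 0.0735). Its relative Msx1 had 6.31, 1.34 and 5.15 CPM and 1.49, 1.57 and 1.53 CPM, with WT replicate 2 as low as the Nipbl+/- cultures (log2FC -1.47, edgeR adjusted p = 0.171). The BMP target Atoh8 (-0.50) and the TGF-beta targets Pmepa1 (-0.28) and Tgif1 (-0.07) had log2FC values below 0, and Cyr61, also a target of TGF-beta, had 0.04. None of these 6 passed the threshold.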

How the data were processed

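The authors depleted total RNA of rRNA, prepared libraries with a TruSeq kit, aligned reads with TopHat 2.0.10 to mm10 using annotation release 72 of Ensembl, and gave each gene of each culture a raw count and an RPKM value, both deposited. The counting tool and its use of strand are not given in the sources used here, so reads of a gene and of a transcript antisense to it cannot be told apart. Counts of the 6 cultures were filtered with filterByExpr (minimum count 10), scaled by TMM and compared between genotypes with no covariate in R 4.3.3. The test was edgeR's (4.0.16) quasi-likelihood test over the 9061 genes kept, with Benjamini-Hochberg adjustment and a threshold of 0.05. Standard errors were obtained from each log2 fold change and the root of its F statistic. The deposited RPKM values were used only to compare levels of different genes, with no test. With 3 against 3 cultures an exact two-sided permutation test of 1 gene cannot give a p below 0.1.

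Members, roles and lists were chosen with earlier results of these data known. Genes named are those past the threshold and, in each role, the 3 with the highest mean CPM and the 3 with the smallest p, and a few others were added for completeness after their values were seen. Some genes with such names are not reported here. The steps were tested on simulated counts. Exon overlaps came from GENCODE M21 (GRCm38). Alternatives were DESeq2 1.42.0, edgeR's exact and likelihood ratio tests, other scalings and filters, a replicate block, the Xist level as a covariate and each culture left out.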

Additional observations from a re-analysis of the deposited data

How the results depend on the processing

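Against 4 members past the threshold in the report's fit, the count was 7 with DESeq2 (5 lower, beside 2.34% of all genes), and 4 members were lower with edgeR's exact test (2.35% of all genes), its likelihood ratio test (2.41%) and no filter on low counts (1.13%). Leaving out each culture in turn gave 0 to 5 members, with 0 to 2 higher and 0 to 3 lower. The 5 were found without WT replicate 2, where edgeR called 2.91% of all genes. Without WT replicate 3 or Nipbl+/- replicate 3 there were 4, beside 0.704% and 0.726% of all genes. There were 0 without WT replicate 1 or Nipbl+/- replicate 1, where edgeR called 0.0651% and 0.0325% of all genes, and 1 (Inhbb) without Nipbl+/- replicate 2 (0.12%). Other pathway genes past the threshold were 4 in the report's fit, beside 1.95% of all genes, and 10 with DESeq2, beside 4.96%. They were 7 each with the exact test (4.76% of all genes), the likelihood ratio test (4.88%) and no filter (2.41%). With a culture left out they were 0 to 6, beside 0.0325% to 2.91% of all genes. The count was 0 without WT replicate 1 and without Nipbl+/- replicates 1 or 2. Nipbl had a log2FC from -0.47 to -0.39 with a culture left out and missed the threshold in 3 of 6 such fits, those without WT replicate 1 and without Nipbl+/- replicates 1 or 2. Over all genes the count was 177, against 449 with DESeq2, 431 and 442 with the exact and likelihood ratio tests, 325 with no filter, 86 with the replicate block and 3 to 268 with a culture left out. The cause of these shifts was not tested. Inhbb, Id2 and Hbegf were past the threshold in all 10 settings that kept every culture, and Dusp27 in 9.

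Of 655 values of 41 named genes under the alternatives, 31 changed sign, for 12 genes that passed the threshold under no alternative, while 14 lost and 13 gained the threshold. With library size alone these were Bmp1 (0.0243), Dusp11 (0.0208), Dusp3 (0.00127) and Gdf15 (0.0328), and with upper-quartile factors Bmpr1a (-0.00537). These scalings moved the median of all genes by 0.04 (library size alone) and -0.01 (upper quartile), about as much as they moved these genes, so these changes of sign are not particular to them. With the Xist level as a covariate they were Bmp4 (-0.0458), Bmpr1a (-0.0162) and Spry4 (0.0325). With a culture left out, the log2FC ranged from -0.0809 to 0.0515 for Bmp1, -0.13 to 0.38 for Bmp4, -0.0377 to 0.0401 for Bmpr1a, -0.0523 to 0.00716 for Dusp11, -0.0944 to 0.045 for Dusp3, -0.24 to 0.12 for Fgfr2, -0.14 to 0.14 for Fst, -0.0539 to 0.12 for Gdf11, -0.0905 to 0.0536 for Gdf15, -0.30 to 0.12 for Pdgfb, -0.14 to 0.0428 for Spred3 and -0.30 to 0.0332 for Spry4.

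The replicate block gave the same 4 members as the fit without it. Correlations between same-numbered cultures were -0.06, -0.04 and -0.14. In every such pair Ddx3y exceeded Xist in only the WT or only the Nipbl+/- culture. These values therefore cannot show whether the numbers pair the cultures.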
